A study of Caenorhabditis elegans with 2 samples.

Results

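Chromosome V carried 574 of the 3782 MRG-1 peaks in the authors' list, or 15.2% of it (95% exact Clopper-Pearson interval 14.0 to 16.4%). They were chosen by their chromosome alone, and their score took no part. MRG-1 binding was mapped in Caenorhabditis elegans by chromatin immunoprecipitation and sequencing (ChIP-seq) in 1 ChIP library, next to 1 library of input DNA, with no replicate of either. Both libraries came from hermaphrodites of the strain fem-2(b245), genotype fem-2(b245)III, in which a gene that directs male development and sperm formation carries a temperature-sensitive mutation, and the labels give 20 °C. The stage label says young adults with a germline, whereas the growth protocol says that cultures were grown until the animals were gravid. MRG-1 was precipitated with rabbit polyclonal antibodies, affinity-purified, against a stretch of the protein itself. Both libraries are recorded as fixed with 1% formaldehyde for 10 minutes. Whole animals were ground, so binding in germ cells and in somatic cells cannot be told apart. Read counts were not analysed here: a peak is a region the authors' caller reported, its depth is unknown, and every value below describes 1 library.

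MRG-1 has a chromodomain and is related to human MRG15 and yeast Eaf3, whose chromodomains bind histone H3 methylated at lysine 36, a mark of transcribed genes. In C. elegans it is needed for the survival and development of germ cells. The autosomes of this worm have gene-dense centres in which meiotic recombination is rare, and arms with more recombination and more repeats. Chromosome V, the longest, is known for large families of chemoreceptor genes, many of which lie in its arms. The peak list names no genes, so the peaks are described here by position, width and spacing.

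Positions are those of WormBase WS220. The first peak on V ran from 5610 to 9529 and the last from 20849749 to 20852401, and the end of the last peak was used as the length of the chromosome, 20.9 Mb. V was cut into 3 sections of equal length, left, middle and right, with borders at 6950800 and 13901601. A peak belonged to the section that held its midpoint. The last peak of the left section (6838711 to 6840935) and the first of the middle section (7049168 to 7051453) were 208232 bp apart. The last peak of the middle section (13818764 to 13825519) and the first of the right section (13960468 to 13966016) were 134948 bp apart, so no peak lay across a border.

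V was the autosome with the fewest peaks for its length. It made up 25.3% of the autosomal length and held 16.0% of the autosomal peaks. Its density was 27.5 peaks per Mb, against 49.0 per Mb over chromosomes I to IV together. The ratio was 0.562 (95% interval from 0.513 to 0.615; exact binomial test, two-sided, adjusted p = 3.33e-40, Benjamini-Hochberg over the 11 tests reported here). Peaks covered 2.40 Mb of V, or 11.5%, and 24.1% of I to IV, a ratio of 0.477. Each peak on V covered 4187 bp on average, against 4929 bp on I to IV. Counted peak by peak, the lower cover of V was mainly a matter of number. The density ratio was 0.562 and the ratio in bp per peak 0.850. With peaks less than 5 kb apart joined, the density ratio was 0.718 at a cover ratio of 0.477. This split between number and length thus depends on how close neighbours are counted. The tests here and below treat peaks as independent, although many lie in tight groups, so their p-values are too small and their intervals too narrow.

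The lower number was more marked in the outer sections of V than in the middle. Below, arms and centre stand for the outer and middle sections, which were cut by length and not by recombination. How far they match the arms and centre of the genetic map was not examined. In the outer sections V had 27.6 peaks per Mb and I to IV had 53.6, a ratio of 0.515. In the middle section V had 27.3 peaks per Mb and I to IV had 39.7, a ratio of 0.689. Against single autosomes, the ratio in the outer sections was 0.406 with I, 0.429 with III, 0.601 with II and 0.702 with IV. In the middle section it was 0.603 with I, 0.615 with III, 0.747 with II and 0.808 with IV. With both arms pooled, the ratio was lower in the outer sections than in the middle against each of the 4. Single arms did not all follow: against II the ratio was 0.899 in the left section, and against IV it was 0.819 in the right section, both above that in the middle.

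Within V the number of peaks was almost even. The left section held 209 peaks, the middle section 190 and the right section 175, at 30.1, 27.3 and 25.2 per Mb. The middle section had 0.990 times the density of the outer sections (interval 0.827 to 1.18, two-sided exact binomial test, adjusted p = 0.929). The right section had 0.837 times the density of the left (interval 0.681 to 1.03, adjusted p = 0.127 by the same exact test). That evenness depended on how close neighbours were counted: with peaks less than 1 kb apart joined, the middle section had 1.27 times the density of the outer sections, and with those less than 5 kb apart joined 1.52 times, both past the test. Among the upper 50% of the whole list by score it was 1.77 times, also past it. That filter itself favours the middle section, where the median score was 2534, against 369 in the outer sections. The higher ratio there is thus no separate sign of unevenness.

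I to IV together had 0.740 times as many peaks per Mb in the middle section as in the outer sections. The middle-to-outer contrast on V was 1.34 times theirs (odds ratio, 95% interval 1.10 to 1.62, two-sided Fisher's exact test, adjusted p = 0.00598). Chromosome by chromosome, the contrast of V was 1.49 times that of I (adjusted p = 0.00244, exact test) and 1.44 times that of III (adjusted p = 0.00598, exact test). It did not pass against II (1.24, interval 0.967 to 1.60) or IV (1.15, interval 0.897 to 1.47), whose own middle-to-outer ratios were 0.797 and 0.860. The pooled difference no longer passed after joining of peaks less than 5 kb apart (1.27) or in that upper 50% by score (1.30), with adjusted p from 6.00e-05 to 0.105 over its 11 alternatives.

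Covered length on V did have a centre. Peaks lay over 15.7% of the middle section, against 9.42% of the outer sections, a ratio of 1.67. The right section was covered by 8.88% and the left by 9.96%, a ratio of 0.892. Since the number of listed peaks per Mb was nearly the same, the higher cover of the middle section came with peaks 1.69 times as long on average. That too depended on how close neighbours were counted. With peaks less than 5 kb apart joined, the middle section had 1.52 times the number per Mb and 1.51 times the cover of the outer sections. The higher cover then went with number. On I to IV, the ratio of cover between middle and outer sections was 1.48, made of 0.740 times the number and 1.996 times the length per peak. The middle section of V held 45.5% of its covered bases and 33.1% of its peaks, and that of I to IV held 42.5% of the covered bases and 27.0% of the peaks. The middle section of V was covered by 15.7%, against 20.8% of the outer sections of I to IV together. Among single autosomes the outer sections of IV were as covered (15.8%), and the left section of II (13.6%) and the right section of IV (13.6%) were less covered.

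**Figure D1:**
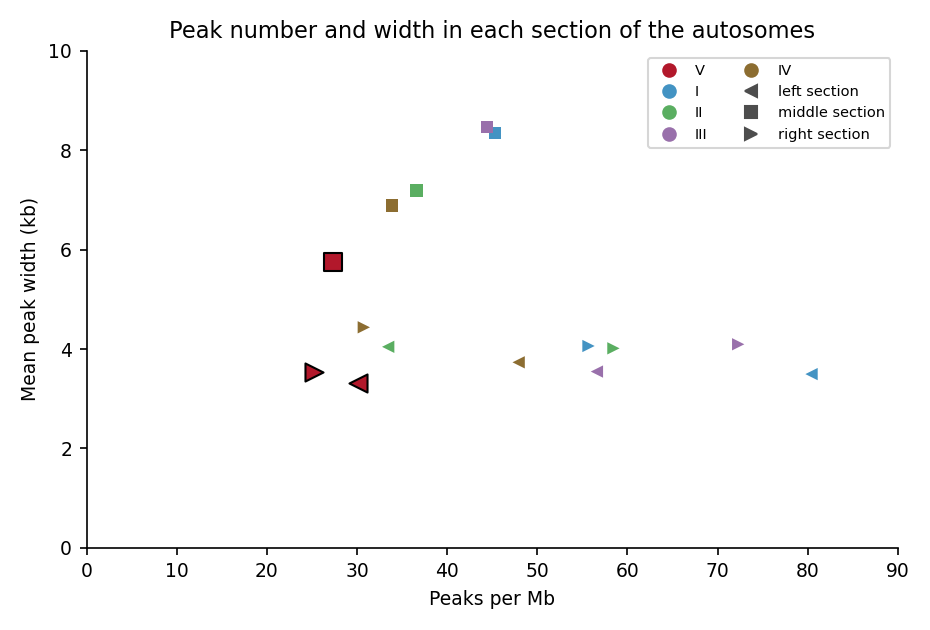
Mean peak width (kb) against peaks per Mb in the left, middle and right section of each autosome, V in red with black outlines; 1 point stands for 1 section of 1 chromosome, without error bars since there is 1 library. Among the 5 middle sections (squares), V has the fewest peaks per Mb (27.3) and the smallest mean width (5757 bp).

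In median width, V departed from I to IV together mainly in the middle section. The median peak of the middle section was 4371 bp wide on V (quartiles 2724 and 7271 bp) and 6069 bp on I to IV (quartiles 3225 and 10748 bp). The medians of the single autosomes ran from 5600 bp on II to 6356 bp on I, all above that of V. In the outer sections the medians were close, at 2264 bp on V and 2212 bp on I to IV. Over whole chromosomes the medians were also close, 2935 bp on V and 2913 bp on I to IV.

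Peaks of 5 kb or more made up 85 of the 190 peaks in the middle section of V (44.7%, exact interval 37.5 to 52.1%) and 83 of the 384 in its outer sections (21.6%, interval 17.6 to 26.1%). The odds ratio was 2.94 (interval 1.98 to 4.35, two-sided Fisher's exact test, adjusted p = 1.13e-07). It turned to 0.989 when peaks less than 5 kb apart were joined, a step that draws groups of narrow arm peaks into long regions. Among the upper 50% by score it did not pass (1.36). On V the median score was 126 for peaks under 2 kb and 3100 for those of 5 to 10 kb. That filter thus tends to drop narrow peaks, so 1.36 is no separate check of the width contrast. In the middle section of I to IV, 59.1% of peaks reached 5 kb. The odds on V were 0.560 times those (interval 0.402 to 0.780, Fisher's exact test, adjusted p = 0.00167), a difference that did not pass when 3 kb was taken as the limit (0.756). In the outer sections, the share was 21.6% on V and 24.0% on I to IV (odds ratio 0.873, interval 0.663 to 1.14, Fisher's exact test, adjusted p = 0.362).

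V had few broad regions in any section. Peaks of 10 kb or more numbered 40 on V, or 6.97% of its peaks, against 13.5% on I to IV. In the middle section there were 25 (13.2% of its peaks), against 27.9% on I to IV, and in the outer sections 15 (3.91%), against 8.14%. With 10 kb as the limit, the outer sections of V also stood below those of I to IV (odds ratio 0.459, past the Fisher test). These 40 peaks gave 23.1% of the covered bases of V, whereas peaks of 10 kb or more gave 41.7% of those of I to IV. Peaks under 2 kb were as common on V as elsewhere, at 36.2% and 36.4%, and within V they made up 16.3% of the middle section and 46.1% of the outer sections.

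**Figure D2:**
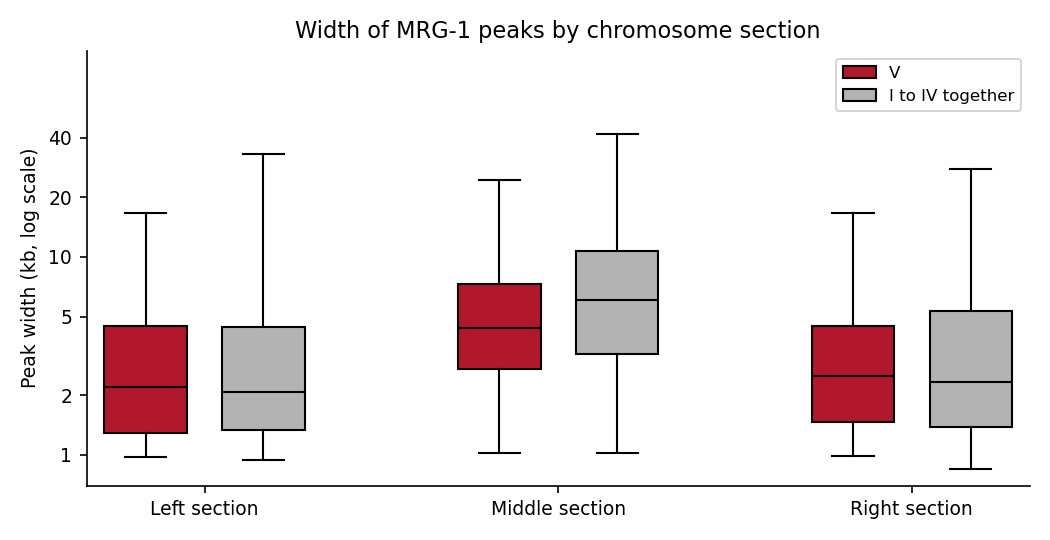
Peak width (kb, log scale) in each chromosome section, V (red, left of each pair) beside I to IV together (grey); boxes span the quartiles with the median as a line, and whiskers reach the narrowest and widest peak. The medians are close in the left and right sections, and in the middle section V is lower, at 4371 bp against 6069 bp.

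The 5 widest peaks of V all lay in its middle section. The widest, 24575 bp, ran from 7217237 to 7241811, near the left border of that section, and the next, 20527 bp, from 11109245 to 11129771. They were followed by peaks of 19884 bp (9536457 to 9556340), 18255 bp (7571710 to 7589964) and 17435 bp (12590736 to 12608170). None came near the widest autosomal peak elsewhere, 41889 bp. In the left section the widest were 16660 bp (6421737 to 6438396), 12933 bp (4818287 to 4831219) and 12432 bp (4337585 to 4350016), all in the part of that section nearer the centre. In the right section the widest, 16727 bp from 20832695 to 20849421, was the last but 1 on the chromosome. It lay only 327 bp from the last peak. The others there were 16455 bp (15055914 to 15072368) and 16231 bp (14444218 to 14460448).

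In bins of 250 kb the profile of V was uneven. Over 83 bins the covered share ran from 0 to 25.3%, with a median of 11.2%, quartiles of 5.13 and 16.5% and a mean of 11.5% ± 7.50 (SD over bins, not over libraries). The median bin of I to IV was 23.1% covered and their best covered bin 52.8%, over 246 bins. The median was 16.1% over the 28 bins of the middle section of V, against 9.88% over the 55 bins of the outer sections. On I to IV it was 27.9% in the middle section and 19.8% in the outer sections. Bins over 20% made up 9 of 28 in the middle section of V and 4 of 55 in its outer sections.

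Thinly covered bins were common on V and lay mostly in its outer sections. Under 5% were 20 of its 83 bins (24.1%), against 12 of 246 on I to IV (4.88%). The right section had 11 of these 20, the left section 6 and the middle section 3. Such bins made up 40.7% of the right section of V and 21.4% of its left section. The right section of IV (21.7%) and the left section of II (20.0%) were close to the left section of V. On I to IV none of the 84 bins of the middle section was under 5%. No base under a peak was found in 5 bins of V, which started at 1500001 and 3000001 in the left section and at 17250001, 18250001 and 19250001 in the right section. On I to IV, 2 bins were without a peak, both on IV.

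**Figure D3:**
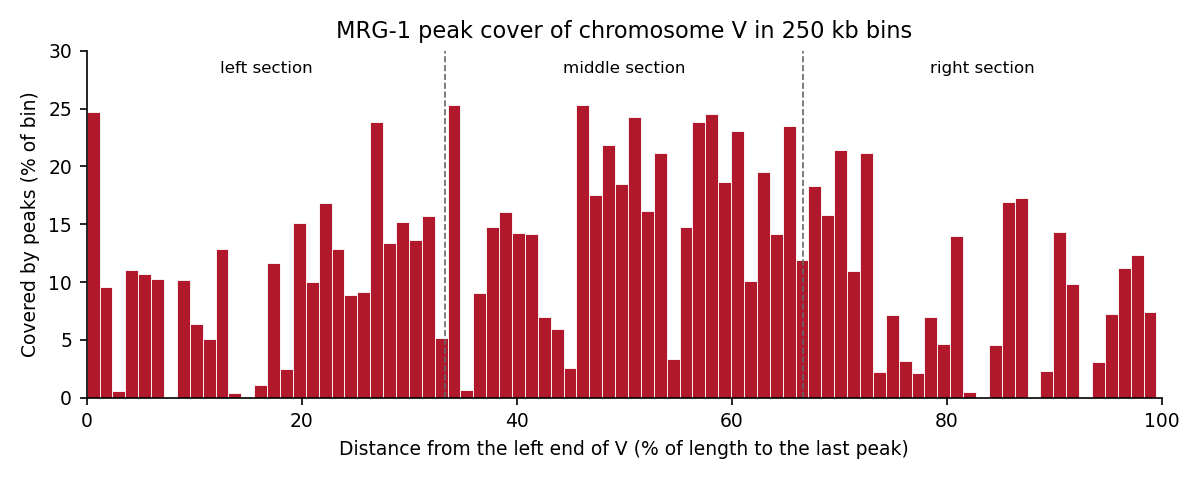
Share of each 250 kb bin of V under peaks (%), against distance from the left end as a percent of the length to the last peak; dashed lines divide the sections. Tall bars crowd between 45.6 and 73.1% of the length, single bars near the left end and the first border are as high, and 5 bins at 0 lie in the left and right sections.

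The best covered bins were not all central. The 5 highest started at 9500001 (25.3%, 7 peaks), 7000001 (25.3%, 8 peaks), 1 (24.7%, 20 peaks), 12000001 (24.5%, 11 peaks) and 10500001 (24.2%, 11 peaks). The first bin of the chromosome thus reached nearly the same cover as the best central bins with more and narrower peaks. The bin beside the second of these, starting at 7250001, was 0.706% covered, the lowest of the middle section, so the widest peak of V stood next to a stretch almost without peaks.

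Over the whole of V the covered bases had a mean position at 49.6% and a median at 50.8% of its length, values near those that even cover would give. The span between their quartiles was 37.9% of the length on V, against 38.7% on I to 41.6% on IV. The runs of bins described next were picked after the bin values were seen, so they are given without a test. The longest run of bins covered by 10% or more spanned 15 bins, from 11500001 to 15250000, at 18.1% covered with 135 peaks. It reached 1.35 Mb beyond the border of the middle section. The second run, 7 bins from 9500001 to 11250000, was 20.7% covered and was parted from the first by 1 bin at 3.37%. The next longest, 5 bins from 5500001 to 6750000 in the left section, was 16.4% covered with 43 peaks. Joined, the longest and the second longest made up 27.6% of the length of V, 33.4% of its peaks and 43.6% of its covered bases. On I and III the longest such runs were 45 and 49 bins, on II 32 and on IV 17.

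The joined stretch was chosen for its cover, so its contrast in cover with its flanks follows from the choice and is no finding. Right of it, the 6 bins from 15250001 to 16750000 formed the longest run under 10% on V, at 4.38% covered with 17 peaks. On IV the longest such run was also 6 bins, at 3.43% covered with 13 peaks. Peak width did not enter the choice directly. Its median on V was 4227 bp in the joined stretch, 2485 bp left of it and 1907 bp right of it. Wider peaks raise cover, so this order is a description only.

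In 10 slices of equal length, cover on V peaked at 18.3% in the slice from 50 to 60% of the length and was lowest, at 4.86%, from 10 to 20%. Density followed another course. It was highest in the first slice (37.4 per Mb), where the median width was 1717 bp, and lowest in the slice from 30 to 40% (18.7 per Mb), where the median width was 5328 bp. Median widths under 2 kb were found in 4 slices, all at the ends: those up to 20% and those from 80%. V was the least covered autosome in 8 of 10 slices and had the fewest peaks per Mb in 5 of 10. II was lower than V from 20 to 30%, at 11.9% against 14.3%, and IV was lower in the last slice, at 8.03% against 8.79%.

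**Figure D4:**
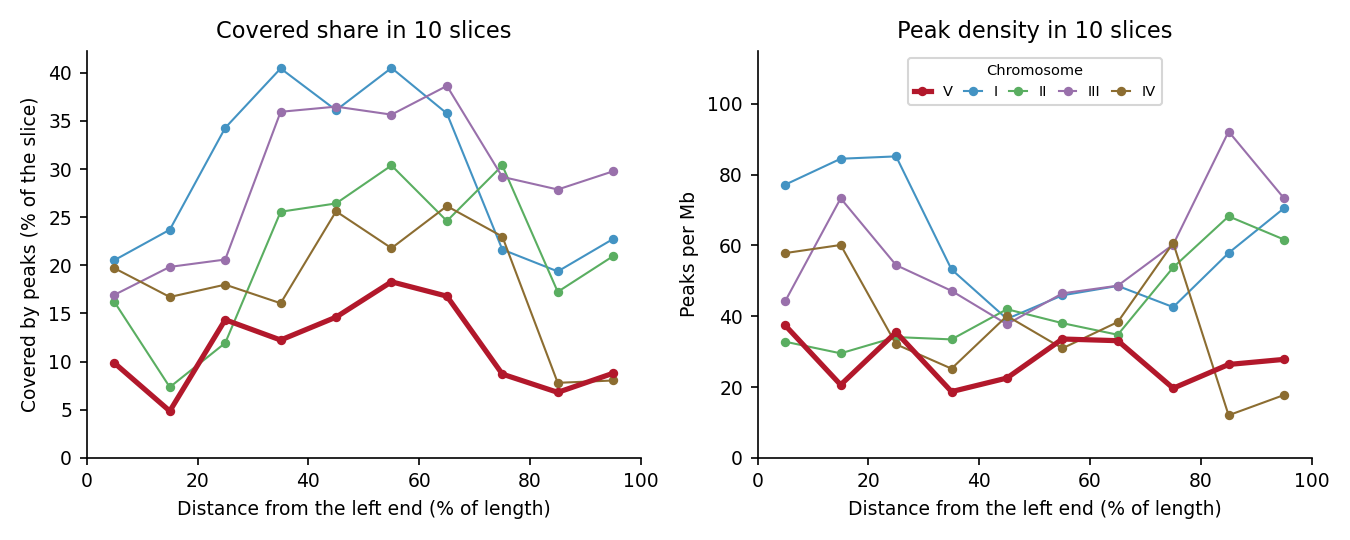
Share of length under peaks (%, left) and peaks per Mb (right) in 10 slices of each autosome, against distance from the left end as a percent of length; V is the thick red line and I to IV the thin lines, 1 value per slice. V rises to 18.3% covered between 50 and 60% of its length, and its density moves between 18.7 and 37.4 peaks per Mb.

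Spacing differed between the centre and the arms of V. In the middle section the median gap between neighbouring peaks was 19.4 kb, with quartiles of 4.55 and 38.9 kb. In the outer sections the median gap was 4.45 kb, with quartiles of 0.565 and 38.2 kb. Gaps under 1 kb made up 12.1% of the gaps in the middle section and 31.9% of those in the outer sections. Peaks in the arms thus came in tight groups between long empty stretches, and peaks in the centre were spread more evenly. The same order held on I to IV, where the median gap was 9.24 kb in the middle section and 2.22 kb in the outer sections.

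Groups of peaks less than 1 kb apart held 41 of the 190 peaks of the middle section (21.6%) and 194 of the 384 in the outer sections (50.5%). Among I to IV the share in the middle section ran from 29.6% on II to 45.8% on I. Over the whole chromosome it was 40.9% on V, against 43.6% on II to 59.6% on I. The largest group on V had 9 peaks within 23841 bp, from 176085 to 199925, near the left end. Of the next largest, 2 groups of 6 peaks lay at 348918 to 359299 and 4608174 to 4626383, both in the left section. A group of 5 in the right section, from 14112235 to 14124192, was 95.6% covered, so its peaks were parted by short breaks only. Whether such groups are separate sites or 1 region split by the peak caller was not tested.

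Long empty stretches took up much of V. Gaps of 100 kb or more numbered 49 and summed to 8.87 Mb, or 42.6% of its length, against 66 gaps and 17.0% of the length on I to IV. In the right section they took up 60.9% of the length (23 gaps), in the left section 42.2% (15 gaps) and in the middle section 24.6% (11 gaps). On I to IV the shares were 23.6% in the right, 21.5% in the left and 5.94% in the middle section. Among single sections, the right of IV (47.3%) and the left of II (45.3%) lay above the left section of V and below its right section. Of the 20 longest gaps on the 5 autosomes, 10 were on V, although the longest of all, 753 kb, was on IV.

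The 8 longest gaps of V all lay in its outer sections. The longest, 399782 bp, ran from 2877152 to 3276933 in the left section, and the next 4 were in the right section. Those spanned 18137945 to 18533555 (395611 bp), 19195494 to 19568692 (373199 bp), 17155773 to 17514294 (358522 bp) and 16027908 to 16356994 (329087 bp). The longest gap of the middle section, from 7241812 to 7465669, was 223858 bp. Peaks at the rims of these gaps were not all weak: that from 19188784 to 19195493 was 6710 bp wide with a score of 3106.09, whereas those on both sides of the longest gap were 1105 and 1415 bp wide with scores of 87.53 and 95.41. Between the gaps of the right section lay a compact cluster. The bins starting at 17750001 and 18000001 held 18 peaks each and were covered by 16.9% and 17.3%, and the next bin held none.

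**Figure D5:**
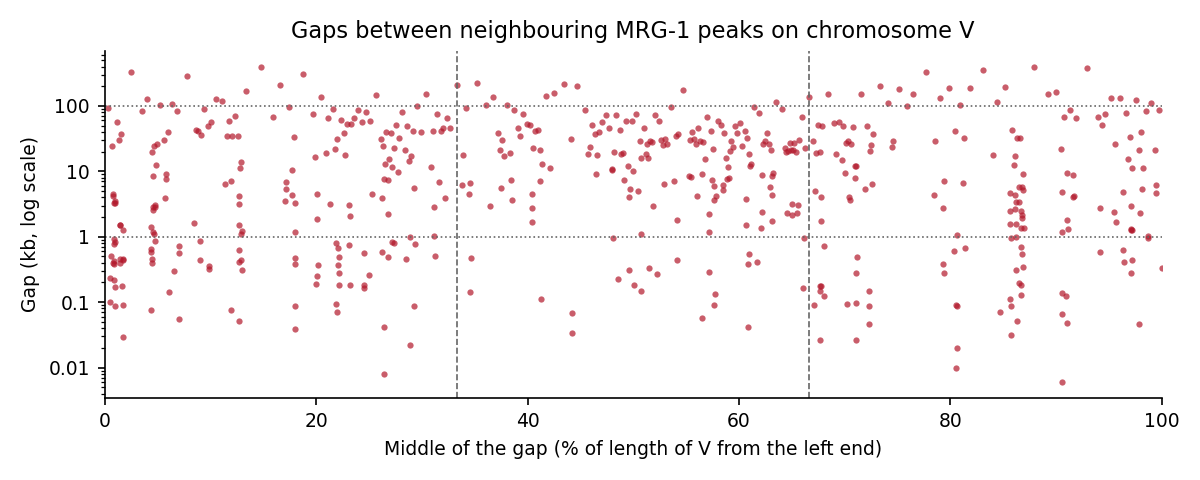
Length of each gap between neighbouring peaks on V (kb, log scale) against the middle of the gap as a percent of the length of V; 1 point is 1 gap, dashed lines divide the sections and dotted lines mark 1 and 100 kb. The 8 longest gaps lie in the left and right sections, and few gaps under 1 kb lie in the middle section (12.1% of its gaps).

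The authors' score, whose scale the file does not state, was used to describe peaks and to name the 5 highest-scoring ones. It also served to keep the upper 50% of the list as a stricter alternative in the tests. The score took no part in defining the set of peaks on V. It ran from 50.11 to 3208.54 on V with a median of 952, against a median of 625 on I to IV. In the middle section of V the median was 2534, against 369 in its outer sections. Exactly 3100 was given to 139 peaks of V and more to 9, so the highest scores carry little order. A score of 3100 or more was given to 25.8% of the peaks on V and 21.3% of those on I to IV. Peaks with such a score had a median width of 6596 bp on V and 7523 bp on I to IV. Among peaks of 2 to 5 kb, the share with such a score was 18.2% on V and 10.4% on I to IV. None of these differences in score was tested. Of the 208 peaks under 2 kb on V, none had a score of 3100 or more.

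The 5 highest-scoring peaks were of moderate width, and 3 of them lay in the left section. They ran from 2008416 to 2011807 (score 3208.54, 3392 bp), 5658339 to 5663564 (3203.00, 5226 bp), 15510257 to 15514178 (3191.50, 3922 bp), 9175237 to 9178275 (3132.93, 3039 bp) and 2692482 to 2699632 (3128.80, 7151 bp). Only the fourth was in the middle section, where it bordered the second longest gap of that section, 213050 bp. Of the 5 widest peaks of V, 3 had a score of exactly 3100, the widest had 1066.43 and the second widest 2737.28.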

How the data were processed

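The deposited file was the authors' peak list of the 1 ChIP library, with positions in WormBase WS220 and MACS as the source of the peaks, per the file headers and columns. BWA and ce10 are named in the submitters' processing notes. The sources used here do not give the settings or version of the caller, or whether it used the input. Each peak carries a score that the authors deposited without stating its scale. Reads of either library were not analysed here.

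All 574 rows of chromosome V were kept. No peaks in the list overlapped. Width was end minus start plus 1, and cover was counted base by base. Chromosome length was the end of the last peak, a lower bound. Bins of 250 kb started at base 1, and a last bin under 50% of that size was left out. Numbers of peaks were set against length in exact binomial tests (two-sided, Clopper-Pearson intervals), and shares were compared in two-sided Fisher's exact tests, with Benjamini-Hochberg adjustment over 11 tests and a threshold of 0.05. Intervals cover counting error only. Cover, gaps and scores were not tested. The test of the middle against the outer sections of V was checked on simulated lists of independently placed peaks with known ratios. For the pooled contrast, only how often its unadjusted p fell under 0.05 by Fisher's exact test was counted on them. Those lists do not mimic the tight groups of the real peaks, so the check does not cover that limit. The remaining tests were not checked in this way. Python 3.11.15, NumPy 2.4.6, SciPy 1.17.1 and Matplotlib 3.10.9 were used.

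The peaks, the comparisons and the alternatives were chosen with earlier results of these data known. The peaks named were the first and last, the 5 widest, the 3 widest in each section, the 5 highest by score, those beside the 5 longest gaps and those beside the borders of sections. The bins named were the 5 most and least covered and those without a peak. The 10 slices, runs of bins, the joined stretch, groups of peaks and the cluster in the right section were chosen after the values were seen. Genes and sequences were not analysed here, since the gene table at hand is of the assembly WBcel235.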

Additional observations from a re-analysis of the deposited data

How the results depend on the processing

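With 1 library, no library could be left out, and the labels gave each group a single sample. No paired analysis was possible because the ChIP and the input had 1 library each and no values of the input were used. The depth is unknown, and a peak list cannot show binding under the calling threshold. Over 108 values under alternative settings, 89 kept their direction and their side of the test, or for untested values stayed within the counting error of the peak numbers (for bins, the exact interval of the median). The density of V against I to IV (0.514 to 0.718 over 9 alternatives), the right against the left section, and the contrast with IV were among them throughout. The ratio of the middle to the outer sections of V in number rested on the setting. It was 1.27 with peaks less than 1 kb apart merged, 1.52 with those less than 5 kb apart merged and 1.04 for a central 50%. In the upper 50% by score, a filter that favours the higher-scoring middle section, it was 1.77. With the 5 kb merging, the contrast with the other autosomes (1.27), with I (1.43) and with III (1.33) no longer passed, nor did it in the upper 50% by score (1.30, 1.29 and 1.42). The contrast with II passed for the central 50% (1.35). Peaks of 5 kb or more in the middle against the outer sections of V had an odds ratio of 0.989 after the 5 kb merging. In the upper 50% by score, a filter that tends to drop narrow peaks, it was 1.36. Against I to IV in the outer sections, the odds ratio passed after that merging (0.668) and with a limit of 10 kb (0.459), and in the middle section it did not pass with a limit of 3 kb (0.756). The cover ratio of middle to outer sections moved to 2.13 in the upper 50% by score. That of V to I to IV moved to 0.559 without the widest 5% and to 0.436 without IV. The causes were not tested.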
